A study of Homo sapiens with 8 samples.

Results

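The 4 HOX gene clusters hold the homeodomain transcription factors that give cells their position along the body axis. They were read here as all CpGs inside 1 interval per cluster on genome build hg19: HOXA at 27.13 to 27.29 Mb of chromosome 7, HOXB at 46.6 to 46.81 Mb of chromosome 17, HOXC at 54.33 to 54.45 Mb of chromosome 12 and HOXD at 176.94 to 177.06 Mb of chromosome 2. Of 5342 CpGs listed there in at least 1 library, 2363 had 5 or more reads in every library and were kept. They were part of 886094 such CpGs on all autosomes. Kept CpGs were grouped into tiles of 1000 bases, and the level of a tile is the methylated percentage of its summed reads. The HOX intervals gave 234 tiles with at least 3 kept CpGs (69 in HOXA, 62 in HOXB, 51 in HOXC and 52 in HOXD) out of 105631 on the autosomes.

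The libraries came from HUES64, an established human embryonic stem cell line, and per the labels all of them carry a knockout of DNMT3A and DNMT3B, so there is no library of unedited cells among them. Reduced representation bisulfite sequencing (RRBS), which reads a CpG-rich fraction of the genome after bisulfite treatment, was done on 8 libraries, 1 each at passages 6, 7, 8, 11, 13, 17, 27 and 28. Whether the passages belong to 1 clone or 1 culture is not in the labels, so a p-value here weighs a trend only against the scatter of single libraries, and that scatter may be technical. Passages 6 to 8 are called early and passages 27 and 28 late. The kept HOX CpGs drew 29445 reads at passage 8, the fewest, and 63864 at passage 6, the most, and the median coverage of a CpG was 25 reads at passage 6 and 11 to 16 in the other libraries.

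DNMT3A and DNMT3B are the enzymes that methylate CpGs anew, while DNMT1 copies existing methylation onto the new strand at replication. In pluripotent cells the HOX clusters are kept silent largely by Polycomb complexes, and their long CpG islands are mostly free of DNA methylation. The genes within a cluster lie in the order in which they are used along the body, from the anterior groups at one end to the posterior groups at the other.

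The promoters that could be placed carried almost no methylation at any passage. No hg19 annotation was used here, so promoters of the RefSeq table (build GRCh38.p14, 250 bases before to 50 bases after the gene start) were placed on hg19 by the spacing of their CpGs against the listed CpGs of the same cluster. This placed 19 promoters of 16 genes, with 7 in HOXA, 11 in HOXD, 1 in HOXB (PRAC2) and 0 in HOXC. No promoter of a HOX gene in HOXB or HOXC was therefore measured. Of the 19, 18 held between 4 and 16 kept CpGs. The 250 bases before the start are printed 5′ to 3′ for 5 of them, because they show how many CpGs lie behind a promoter level near 0 and which single CpG departed from it. Capitals mark the CpGs that were kept.
HOXA10, chr7:27219481-27219730, minus strand: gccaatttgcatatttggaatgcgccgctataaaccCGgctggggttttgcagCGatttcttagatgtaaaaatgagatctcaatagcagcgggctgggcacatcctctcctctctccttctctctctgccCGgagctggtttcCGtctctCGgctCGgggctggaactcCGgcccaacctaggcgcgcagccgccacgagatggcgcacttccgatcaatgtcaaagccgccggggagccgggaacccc
HOXA11, chr7:27224852-27225101, minus strand: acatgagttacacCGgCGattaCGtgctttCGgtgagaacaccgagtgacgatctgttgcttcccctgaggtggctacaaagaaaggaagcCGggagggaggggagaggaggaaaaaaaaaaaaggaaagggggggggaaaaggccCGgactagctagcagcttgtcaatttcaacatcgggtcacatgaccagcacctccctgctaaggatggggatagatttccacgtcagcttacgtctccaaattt
HOXD1, chr2:177053146-177053395, plus strand: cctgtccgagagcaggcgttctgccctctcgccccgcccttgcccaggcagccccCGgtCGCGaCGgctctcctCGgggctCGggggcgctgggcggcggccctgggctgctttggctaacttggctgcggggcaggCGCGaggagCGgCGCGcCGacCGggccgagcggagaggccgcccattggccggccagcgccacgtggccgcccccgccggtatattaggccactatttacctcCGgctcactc
HOXD11, chr2:176971758-176972007, plus strand: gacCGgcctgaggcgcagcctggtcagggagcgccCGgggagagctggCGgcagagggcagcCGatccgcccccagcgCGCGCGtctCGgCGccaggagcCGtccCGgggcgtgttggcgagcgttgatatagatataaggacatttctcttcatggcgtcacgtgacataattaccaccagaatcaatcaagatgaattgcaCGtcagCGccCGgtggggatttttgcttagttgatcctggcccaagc
PRAC2, chr17:46800804-46801053, plus strand: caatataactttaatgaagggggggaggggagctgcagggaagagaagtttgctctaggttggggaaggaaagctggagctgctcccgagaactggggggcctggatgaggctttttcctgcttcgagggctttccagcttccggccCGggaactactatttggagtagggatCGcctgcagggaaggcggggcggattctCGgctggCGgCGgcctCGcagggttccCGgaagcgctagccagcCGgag

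Summed over the 8 libraries, the HOXD11 promoter had 0 methylated reads of 1980, which allows a level of up to 0.152%. HOXD1, the most anterior gene of its cluster, had 0 of 1573 reads, with a limit of 0.191%. The promoter of PRAC2, a gene beside the posterior gene HOXB13, had 0 of 1316 reads, with a limit of 0.228%. At HOXA10 it was 0 of 832 reads, with a limit of 0.361%. These limits cover counting error only. A read is counted once at each CpG it covers, so counts at neighbouring CpGs are not independent. That and duplicate reads would make the limits too low. In all, 11 of the 18 promoters had no methylated read in any library, among them also HOXA3, HOXA7, HOXD10 and HOXD12, and 17 lay under 1% both early and late. Some windows overlap, so these counts are not all of separate reads. The kept CpGs of the HAGLR window at chr2:177052948-177053247 are all counted for HOXD1 too, and HOTTIP shares CpGs with HOXA13. At the posterior genes HOXA13 and HOXD13 3 of 1586 and 3 of 636 reads were methylated. No placed promoter reached 20%.

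HOXA11, a posterior gene active in developing limb and uterus, was the exception. Its promoter level was 4.98, 7.78, 4.88, 8.00, 1.68, 4.71, 5.80 and 4.55% from passage 6 to passage 28. Of its 873 reads, 44 were methylated, and 42 of those 44 fell on a single CpG at position 147 of the printed sequence, counted from 1 at its 5′ end (chr7:27224954-27224955, 103 bases before the start). That CpG was methylated at 57.9, 54.6, 44.4, 62.5, 33.3, 57.1, 57.1 and 60% in the 8 libraries, with 6 to 19 reads in each. The 11 other kept CpGs within 250 bases had a mean of 0.276% early and 0% late. The fitted change of the CpG between passages 6 and 28 was 4.25 points (quasi-binomial fit with limma, adjusted p = 0.889), and early and late libraries overlapped. Over the 1000-base tile that holds the start, in place of the promoter, the level was 2.24% early and 2.32% late. That choice moved the early level of 7 of the 18 promoters beyond the spread of early libraries, HOXA11 downward and 6 in HOXD upward from 0. In those 6 the early spread was 0, so any methylated early read of the tile counted as a move. The HOXD11 tile measured 0.427% early, the HOXD12 tile 0.170% and the HOXD1 tile 0.0658%, which was 1 of 1632 early reads. The highest of the tiles at HAGLR, an antisense RNA gene of HOXD, measured 1.19% but held only 2 kept CpGs.

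Across the whole clusters methylation was low from the start. Tiles averaged 0.873% ± 0.109 (SD, n = 3) early, while the remaining autosomes averaged 51.1% ± 0.326 (SD, n = 3). Of the 234 HOX tiles, 213 (91.0%) lay under 1% early, against 24.2% of the other tiles, and 100 (42.7%) had no methylated read in any of the 8 libraries, against 9.08%. At single CpGs, 2090 of 2363 (88.4%) had no methylated read in any library, over 262713 reads, against 35.5% of the other kept CpGs. By cluster this share was 89.1% in HOXA, 89.5% in HOXB, 85.4% in HOXC and 88.7% in HOXD. Among the tiles without a methylated read, the HOXD tile at chr2:177036001-177037000 had 0 of 3801 reads. Incomplete bisulfite conversion also leaves methylated calls. No control for it was at hand, and its part in the low levels was not tested.

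The level of all HOX tiles fell from 0.885, 0.975 and 0.758% at passages 6, 7 and 8 through 0.683, 0.596 and 0.512% at passages 11, 13 and 17 to 0.258 and 0.469% at passages 27 and 28. Every late library lay below every earlier one. This is a slope of -0.0242 ± 0.00468 points per passage (SE over 8 libraries). Pearson's r was -0.904, with an exact permutation p of 0.000843 and an adjusted p of 0.00253 over 12 trends, and Spearman's rho was -0.952 (permutation p = 0.00114). Over the 6 libraries left when passages 27 and 28 are omitted, r was -0.931 (permutation p = 0.00694). The remaining autosomes fell by 0.495 points per passage, and the difference was 0.471 points per passage (exact permutation p = 2.48e-05, the smallest that 8 libraries allow, adjusted p = 0.000186 over 15 differences). The HOX tiles started below the size of that fall, so the 2 slopes could not have been alike, and the test shows no more than the start level does.

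The clusters did not share 1 course. Over tiles of 3 or more kept CpGs, HOXA measured 1.43, 1.42, 1.34, 1.10, 0.826, 0.629, 0.157 and 0.322% from passage 6 to passage 28. It fell by 0.0559 ± 0.00544 points per passage (SE over 8 libraries; r = -0.973, exact permutation p = 0.000124, adjusted p = 0.000694; rho = -0.976, exact permutation p = 0.000397), and r was -0.988 without passages 27 and 28 (exact permutation p = 0.00139, n = 6). HOXC measured 1.03, 1.05, 0.848, 0.698, 0.885, 0.819, 0.292 and 0.431%. It fell by 0.0286 ± 0.00507 points per passage (SE over 8 libraries; r = -0.917, exact permutation p = 0.00412, adjusted p = 0.00823; rho = -0.833, exact permutation p = 0.0154). For HOXC the relation rests on the 2 late libraries, since without them r was -0.596 (exact permutation p = 0.206, n = 6).

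HOXB and HOXD did not pass the test of a trend. HOXB measured 0.584, 0.534, 0.385, 0.445, 0.378, 0.474, 0.417 and 0.751%, with its highest value at the last passage. Of its 62 tiles, 1 (chr17:46605001-46606000) read 33.3% at passage 28 and raised that value. Its slope was 0.00458 ± 0.00557 points per passage (SE over 8 libraries; r = 0.318, exact permutation p = 0.459, adjusted p = 0.5; rho = -0.0238, exact permutation p = 0.977). The direction was not stable: the slope was negative in 9 alternatives, among them without passage 28 (-0.00451) and with tiles of 1 kept CpG (-0.0351, adjusted exact permutation p = 0.0565). It was also negative with the intervals trimmed by 10 kb, which leaves out that tile and others (-0.00247). HOXD measured 0.378, 0.831, 0.342, 0.397, 0.268, 0.101, 0.171 and 0.367%, with its highest value at passage 7. Its slope was -0.0122 ± 0.00898 points per passage (SE over 8 libraries; r = -0.486, exact permutation p = 0.233, adjusted p = 0.310; rho = -0.595, exact permutation p = 0.132).

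**Figure D1:**
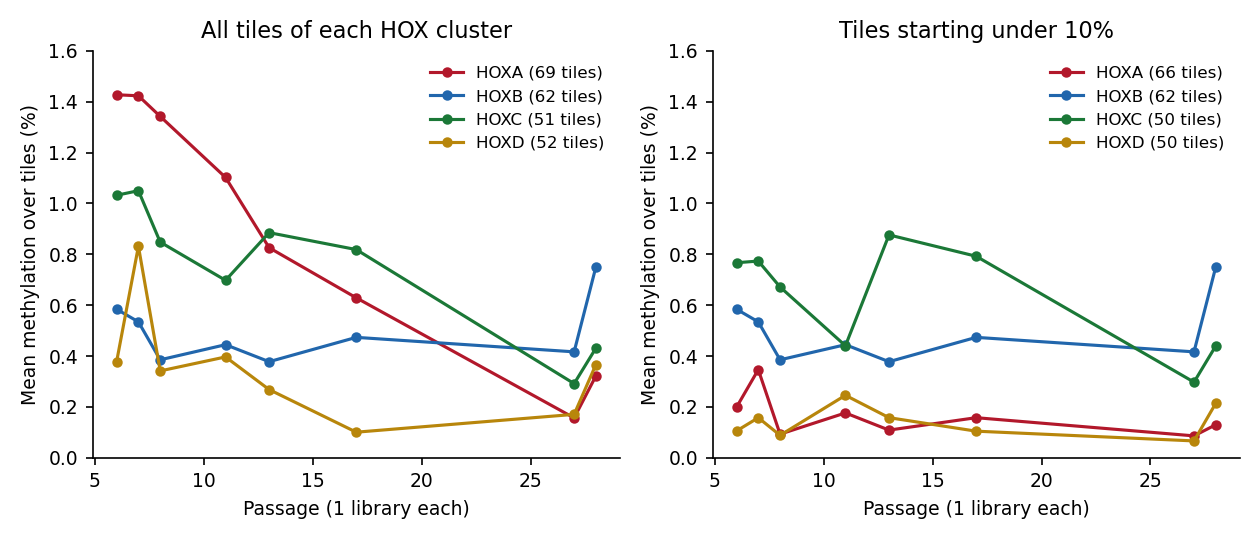
Mean methylation over tiles (%, y axis) against passage (x axis), 1 point per library, for all tiles of each HOX cluster (left) and for tiles that started under 10% (right). In the left panel HOXA falls from 1.43 to 0.322%; in the right panel, without 3 of its 69 tiles, it lies between 0.0863 and 0.347%.

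Of the 6 pairs of clusters, 4 differed in slope over all tiles. HOXA fell faster than HOXB by 0.0605 ± 0.00409 points per passage (SE over 8 libraries; permutation p = 0.000198, adjusted p = 0.000372), than HOXD by 0.0437 ± 0.00657 (exact permutation p = 0.00174, adjusted p = 0.00289) and than HOXC by 0.0273 ± 0.00802 (exact permutation p = 0.0143, adjusted p = 0.0179). HOXC fell faster than HOXB, with a difference in slope of -0.0332 ± 0.00587 (exact permutation p = 0.00675, adjusted p = 0.00920). These tests are bound by the start levels. From early to late HOXA changed by -1.16 points, while HOXB started at 0.501%, HOXD at 0.517% and HOXC at 0.977%. HOXC changed by -0.615 points, again more than HOXB had to lose. The slopes of these 4 pairs could not have been alike, so the tests show no more than the start levels do. Without the 6 tiles none of the 4 passed: HOXB minus HOXA was 0.00950, HOXD minus HOXA 0.00510 and HOXC minus HOXB -0.0207, and HOXC minus HOXA turned to -0.0112. The differences of HOXA from the other 3 were also lost with tiles of 1 or of 5 kept CpGs. Of the 6 tiles only chr7:27171001-27172000 has 5 kept CpGs, so the latter setting leaves out the others as well. HOXD did not differ from HOXB or HOXC beyond the spread of libraries (adjusted exact permutation p = 0.0833 and 0.173). The difference between HOXC and HOXA was lost without passage 6 (0.0270, adjusted p = 0.0538), passage 7 (0.0270, adjusted p = 0.0558), passage 8 (0.0247, adjusted p = 0.0536) or passage 11 (0.0260, adjusted p = 0.0523), all by the exact permutation test, and without passage 6 HOXD fell faster than HOXB (-0.0215, adjusted p = 0.0380).

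Few tiles weighed heavily in these cluster trends. Only 6 HOX tiles started between 10 and 40%, with 3 in HOXA, 2 in HOXD, 1 in HOXC and 0 in HOXB, and none started higher. They averaged 19.01, 20.92 and 18.24% early, 14.4, 9.53 and 5.85% at passages 11, 13 and 17, and 1.78 and 3.66% late. Late libraries kept 14.0% of the early level of these tiles, against 38.3% for the 9103 other autosomal tiles of the same start class, which went from 24.6 to 9.41%. The 9103 tiles are of all CpG densities. Those with 3 to 9 listed CpGs, as in all 6 HOX tiles, went from 25.1 to 8.56%. The slope of the 6 HOX tiles, -0.806 ± 0.121 points per passage (SE over 8 libraries; permutation p = 0.000174, adjusted p = 0.000694), did not differ from that of the 9103 tiles (difference -0.0776 ± 0.0969, exact permutation p = 0.446, adjusted p = 0.446). The 228 HOX tiles that started under 10% went from 0.385 to 0.302%, with a trend that missed the threshold (exact permutation test, p = 0.270, adjusted p = 0.324). The 31880 other autosomal tiles of that class went from 0.942 to 0.453%, and the difference in slope was 0.0197 ± 0.00322 (exact permutation p = 7.44e-05, adjusted p = 0.000223, n = 8). Here too the HOX tiles started below the size of the others' fall. The early level chose these classes, and with the class taken from passage 6 alone and the trend over passages 7 to 28 the slope of the class from 10 to 40% was -0.691 (exact permutation p = 0.0107, adjusted p = 0.0271, n = 7).

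With the 6 tiles set aside, no trend of a cluster passed the test. HOXA then measured 0.213% ± 0.127 (SD, n = 3) early and 0.108% late (slope -0.00493, exact permutation p = 0.195, adjusted p = 0.390, n = 8). HOXC measured 0.737% ± 0.0571 (SD, n = 3) early and 0.369% late (slope -0.0161, exact permutation p = 0.0756, adjusted p = 0.303, n = 8). The difference between HOXC and HOXA turned to -0.0112 points per passage (exact permutation p = 0.221, adjusted p = 0.266, n = 8). This alternative was chosen after seeing the data, and setting tiles aside by a high early level leans toward smaller falls.

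Methylation was highest in tiles with few CpGs. All 6 tiles that started at 10% or more had 3 to 9 listed CpGs, out of 57 HOX tiles of that density. At 3 to 9 listed CpGs the HOX level went from 2.48 to 0.717%, at 10 to 19 (74 tiles) from 0.350 to 0.233%, at 20 to 34 (63 tiles) from 0.365 to 0.215%, and at 35 or more (40 tiles) from 0.352 to 0.337%. The sparse tiles fell by 0.0849 ± 0.0189 points per passage (SE over 8 libraries; permutation p = 0.00342, adjusted p = 0.00821), and they differed in slope from the densest by 0.0852 (exact permutation p = 0.00598, adjusted p = 0.00897). The densest tiles started below the size of the sparse tiles' fall, so this difference was fixed by the start level. The fall of the sparse tiles came mostly from the 6 tiles, which went from 19.4 to 2.72%. The other 51 sparse tiles went from 0.488 to 0.482%, but not alike in each cluster. They fell in HOXA (0.209 to 0.0938%), HOXC (0.792 to 0.0887%) and HOXD (0.0955 to 0%), and rose in HOXB (0.73 to 1.39%). The HOXB tiles include chr17:46605001-46606000, which averaged 9.98% early and 20.3% late, with 33.3% at passage 28. Changes of these low sparse tiles by cluster were not tested. No other density class of the HOX clusters passed the test.

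**Figure D2:**
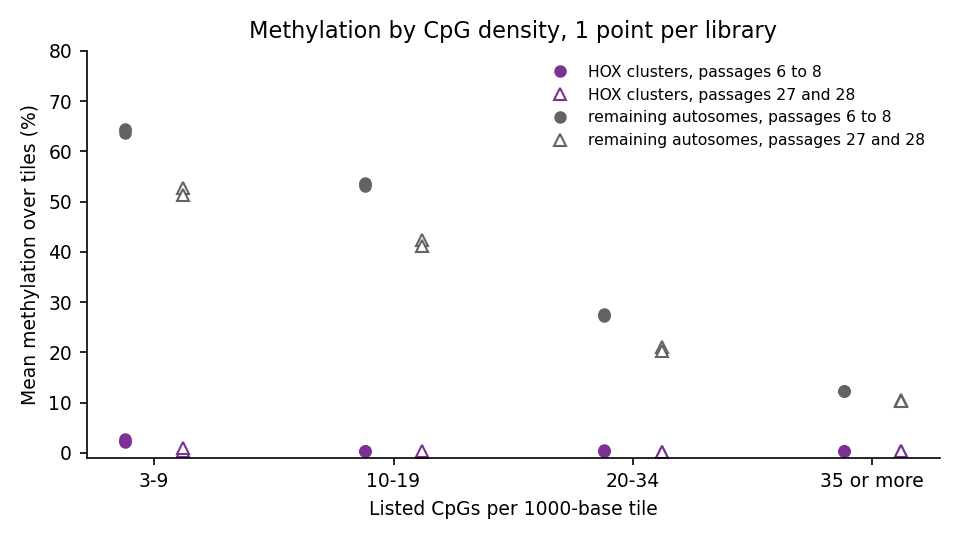
Mean methylation over tiles (%, y axis) by listed CpGs per 1000-base tile (x axis), 1 point per library, filled circles for passages 6 to 8 and open triangles for passages 27 and 28. HOX tiles (purple) lie under 3% in every density class, while the remaining autosomes (grey) lie between 10.3 and 64.4%.

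At every density the HOX tiles lay below the other autosomal tiles in 8 of 8 libraries. The other tiles of 3 to 9 listed CpGs went from 64.1 to 52.0%, those of 10 to 19 from 53.4 to 41.7%, those of 20 to 34 from 27.4 to 20.7% and those of 35 or more from 12.3 to 10.4%. In all 4 classes the HOX tiles started below the size of the others' fall, so a difference in slope is fixed by the start level and is not given as a result. Among the tiles with most kept CpGs, the HOXD tile at chr2:176945001-176946000 (36 kept CpGs) had 3 methylated of 4563 reads, and the HOXA tile at chr7:27232001-27233000 (27 kept CpGs) had 1 of 866 late reads methylated. Not every dense tile was near 0. The HOXB tile at chr17:46711001-46712000, named after its values were seen, has 42 listed CpGs and had 153 methylated of 2416 reads, with 6.31% early and 5.85% late (quasi-binomial fit with limma, adjusted p = 0.896). Among its 16 kept CpGs, only chr17:46711645-46711646 and chr17:46711712-46711713 started at 20% or more. Both started at 80% or more and measured 77.8 and 80.5% late. They held 11 and 23 of the tile's 34 methylated late reads, so its level does not describe its other kept CpGs.

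Single tiles were then tested one by one with a quasi-binomial regression on passage number whose dispersion limma moderated. Testing needed 10 reads of each state, summed over libraries. A call needed an adjusted p under 0.05 and a fitted change between passages 6 and 28 of 10 points or more. Only 22 HOX tiles had enough methylated reads to be tested. Of these, 5 were called as losses, where 34% of all tested autosomal tiles were. Among tiles that started between 10 and 40%, 5 of 6 were called in the HOX clusters and 60.3% on all autosomes. No HOX tile was called as a gain (0.165% of all tested tiles were), with 0 rises at an unadjusted p under 0.05, and limma on logit levels also called 0. The median fitted change was -1.55 points over the 22 HOX tiles and -9.21 points over all tested tiles. By the logit fit with limma 3 of 234 HOX tiles were called as losses, and over passages 6 to 17 alone 1 of 19 was.

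**Figure D3:**
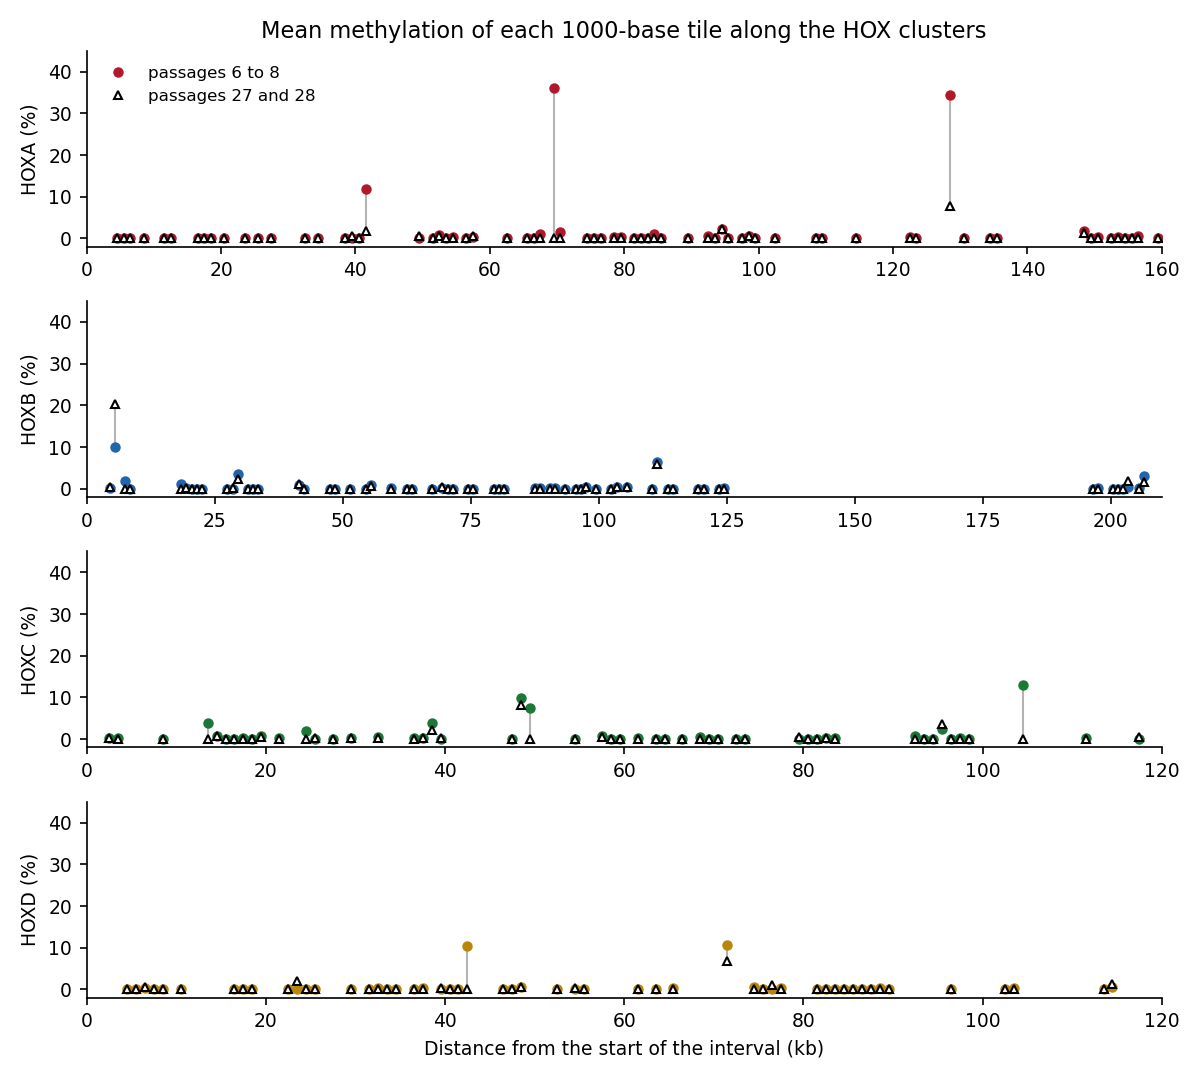
Mean methylation of each 1000-base tile (%, y axis) by its distance from the start of the interval (kb, x axis), with filled circles for the mean of passages 6 to 8 and open triangles for that of passages 27 and 28. Nearly all tiles lie at the bottom of each panel, and the 2 highest circles, at 36.0 and 34.5%, are in HOXA.

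The tile with the largest fall lay in HOXA at chr7:27199001-27200000, with its middle 3.21 kb upstream of the placed start of HOXA7. Its 4 kept CpGs measured 30.9, 38.6, 38.5, 28.3, 18.7, 8.22, 0 and 0% from passage 6 to passage 28. No methylated read was left among 194 late reads, which allows up to 1.94% (upper Wilson limit, counting error only). The fitted change was -37.2 points (quasi-binomial fit with limma, adjusted p = 1.15e-05), and it kept its call over passages 6 to 17 alone (-24.4 points, adjusted p = 0.0163). All late libraries lay below all earlier ones. The HOXA7 promoter itself had no methylated read among 709.

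The next tile, chr7:27258001-27259000, lay 18.5 kb beyond the start of HOTTIP, a long noncoding RNA gene at the posterior end of HOXA. Its 4 CpGs measured 38.0, 26.4, 38.9, 28.6, 31.1, 20, 5.13 and 10.2%, and changed by -29.6 points (quasi-binomial fit with limma, adjusted p = 0.000113). Within it the CpGs parted. The CpG at chr7:27258886-27258887 went from 40% ± 3.01 (SD, n = 3) early to 0 of 76 late reads (single-CpG fit with limma, adjusted p = 0.000111), while the CpG at chr7:27258802-27258803 went from 47.2% ± 11.6 (SD, n = 3) to 31.5% and was not called (adjusted p = 0.182).

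The other 3 losses were smaller. In HOXA, chr7:27171001-27172000 measured 16.4, 10.3, 9.09, 7.5, 0, 4.76, 0 and 3.45% (adjusted p = 0.00650, quasi-binomial fit with limma). In HOXC, chr12:54434001-54435000 measured 14.3, 14.9, 9.68, 13.6, 1.33, 2.13, 0 and 0% (adjusted p = 0.00124), and late libraries lay below all others. In HOXD, chr2:176982001-176983000, 0.995 kb beyond the start of HOXD10, measured 7.41, 23.8, 0, 8.33, 6.06, 0, 0 and 0% (adjusted p = 0.0367). Early and late values overlap in the HOXD tile, since passage 8 was at 0, and without passage 7 it was no longer called (adjusted p = 0.109). The HOXD tile also lost its call without passage 17 (0.0593), passage 27 (0.1202) or passage 28 (0.106), and the HOXA tile without passage 6 (0.0582) or passage 27 (0.0595), all adjusted p with limma.

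**Figure D4:**
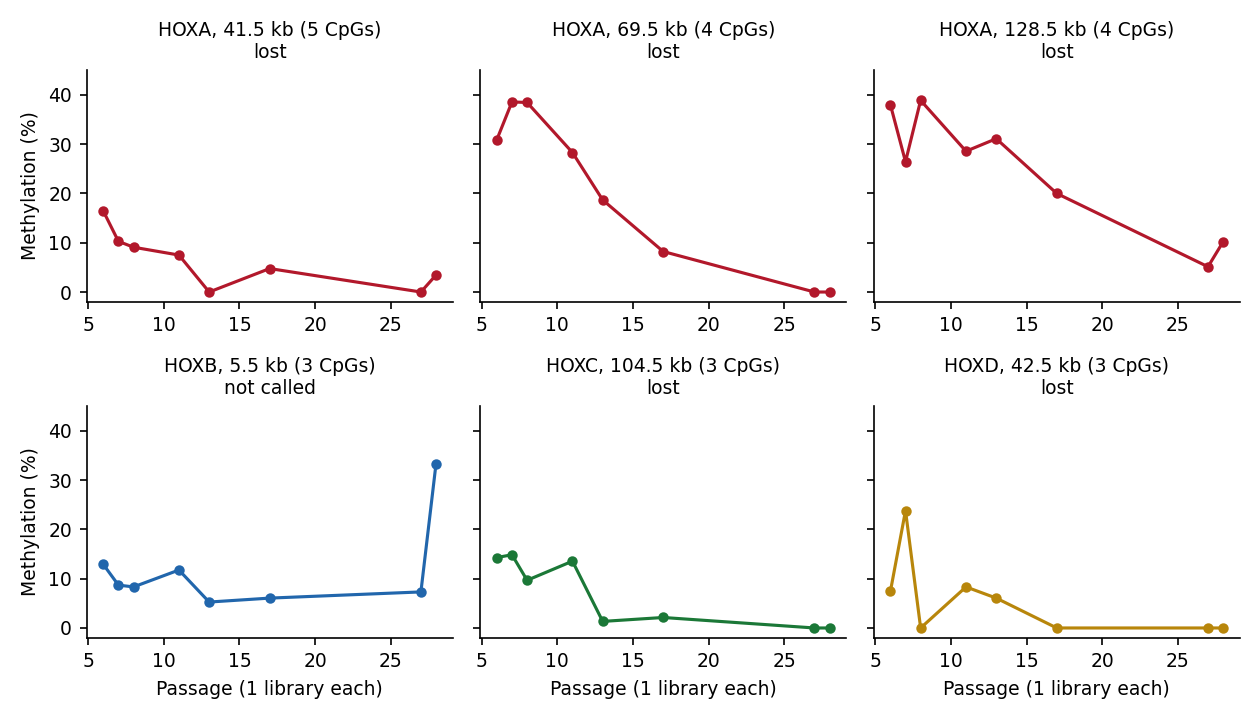
Methylation (%, y axis) against passage (x axis), 1 point per library, in the 5 HOX tiles called as losses and in the HOXB tile that was high only at passage 28; titles give the middle of each tile in kb from the start of its interval. The 2 deepest falls are in HOXA, and the HOXB tile reaches 33.3% at passage 28.

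Among the tiles not called, 1 stood apart. In HOXB, chr17:46605001-46606000 measured 12.9, 8.70, 8.33, 11.8, 5.26, 6.06 and 7.32% up to passage 27 and 33.3% at passage 28. Its fitted change of 8.16 points was not called (quasi-binomial fit with limma, adjusted p = 0.400), and without passage 28 it was -5.52 points (adjusted p = 0.540). The rise sat on 1 of 3 CpGs, chr17:46605283-46605284, which read 30.0% at passage 27 and 84.6% at passage 28. In HOXC, chr12:54379001-54380000 went from 7.57% ± 5.83 (SD, n = 3) early to 0 of 126 late reads, with a fitted change of -8.05 points, under the 10 points a call needs (adjusted p = 0.0123). The other tested HOX tiles that the naming rule took, 3 in HOXB, 2 in HOXC, 2 in HOXD and 1 in HOXA, had fitted changes between -3.02 and 2.17 points and were not called. The lowest of these, at chr17:46607001-46608000 in HOXB, had no methylated read at passages 8, 13, 17, 27 and 28 (adjusted p = 0.00823, quasi-binomial fit with limma).

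Because tiles of 3 CpGs miss isolated positions, the same fit was run on single kept CpGs, an analysis added after seeing the data. Of the 2363 kept HOX CpGs, 32 started at 20% or more, with 8 in HOXA, 14 in HOXB, 5 in HOXC and 5 in HOXD. These CpGs sat in sparse surroundings, with a median of 4 listed CpGs within 250 bases, where the other kept CpGs had 17, and 16 of the 32 lay outside any tile of 3 kept CpGs. Of 41 HOX CpGs tested, 13 (31.7%) were called as losses, against 29.9% of all tested CpGs. By start level, 8 of 19 were called between 10 and 40% (37.9% of all such CpGs), 4 of 12 between 40 and 80% (31.9%), and 0 of 7 at 80% or more (26.3%). No HOX CpG was called as a gain (0.312% of all).

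Highly methylated CpGs were few and mostly in HOXB and HOXD. The 10 CpGs that started at 80% or more averaged 91.8% early and 83.0% late, and 6 were in HOXB, 3 in HOXD and 1 in HOXA. In HOXB, chr17:46786894-46786895 measured 95, 93.3, 100, 100, 94.7, 87.5, 90 and 100%. In HOXA, chr7:27272286-27272287 went from 94.9% ± 8.88 (SD, n = 3) to 91.9%. In HOXD, chr2:177049416-177049417 went from 96.3% ± 3.21 (SD, n = 3) to 86.1%. Early and late libraries overlapped at all 3. Coverage was as low as 7 to 8 reads in single libraries. Of 8 HOX CpGs that reached 80% in all 3 early libraries, 3 (37.5%, Wilson interval 13.7 to 69.4%) were there in both late libraries, against 61.8% of 232824 others.

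**Figure D5:**
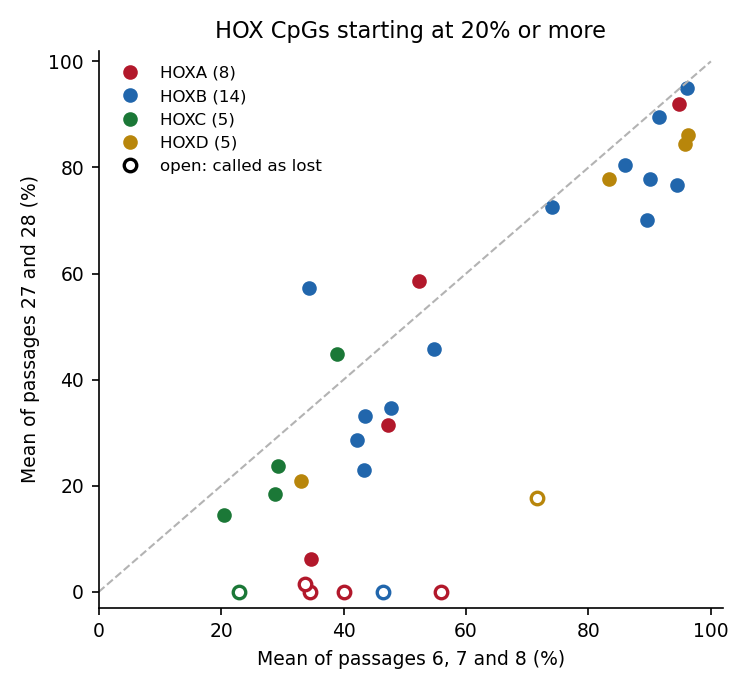
Mean methylation late (%, passages 27 and 28, y axis) against early (%, passages 6 to 8, x axis) for the 32 kept HOX CpGs that started at 20% or more, coloured by cluster, with open circles for CpGs called as lost and a dashed line of equal level. The 10 that started at 80% or more end between 70.1 and 95%, and 6 of those that started lower end under 5%.

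Intermediate CpGs ended at very different levels. The 22 CpGs between 20 and 80% averaged 42.3% early and 24.2% late, and 6 of them ended under 5%. The HOXA CpG at chr7:27199742-27199743, upstream of HOXA7, went from 55.8% ± 9.30 (SD, n = 3) to 0 of 63 late reads (single-CpG fit with limma, adjusted p = 0.000118). Close neighbours could differ. In HOXB, chr17:46783726-46783727 measured 91.5% ± 7.81 (SD, n = 3) early and 89.6% late, though 30.0 and 22.2% at passages 11 and 17, while the CpG 168 bases away measured 46.5% ± 40.9 (SD, n = 3) early and 0 of 26 late reads (single-CpG fit with limma, adjusted p = 0.00803). In HOXD, chr2:177009281-177009282 went from 83.3 to 77.8%, while its neighbour 105 bases away went from 71.7 to 17.7% (adjusted p = 0.0272). Differences between neighbours were not tested.

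HOXB also held a long CpG-poor stretch in which the covered CpGs were methylated. HOXB13 and PRAC2 lie apart from the other HOXB genes, with a long spacer between. The longest stretch of the interval without a tile of 3 kept CpGs was 71 kb, at chr17:46725001-46796000, and had 0.718 listed CpGs per kb where the whole HOXB interval had 6.47. It was picked out by the lack of covered CpGs, after the data had been seen. All 6 of its kept CpGs started at 20% or more, with a mean of 70.3% early and 55.6% late. The corresponding stretches of HOXA, HOXC and HOXD were 12, 8 and 9 kb long, with 1 of 1, 0 of 2 and 2 of 4 kept CpGs at 20% or more. The order of the clusters depends on such positions. With tiles of 1 kept CpG the early level of HOXB becomes 5.31% and that of HOXD 4.90%, above HOXA at 2.52% and HOXC at 1.15%.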

How the data were processed

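RRBS calls of 8 HUES64 libraries with DNMT3A and DNMT3B knocked out were analysed, 1 per passage. Each deposited file lists CpGs on hg19, per the submitters' processing notes. Column 4 holds the deposited methylated and total read counts of a CpG, and column 5 a deposited score, 1000 times the methylated share, which was only checked. Aligner, caller and removal of duplicates: not given in the sources used here. The members and lists were chosen with earlier results of these data known.

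CpGs with 5 reads in every library were kept, and their reads were added up in 1000-base tiles holding 3 or more of them. Set levels weight tiles equally. Trends are least-squares slopes on passage with two-sided exact permutation tests of r over 40320 orders, adjusted by Benjamini-Hochberg. Single tiles were fitted by quasi-binomial regression over all autosomal tiles, with limma 3.58.1 (squeezeVar, dispersion not under 1) in R 4.3.3, an F test and Benjamini-Hochberg adjustment over all tiles tested. Intervals are Wilson 95%, and 0 counts allow 3. Both treat summed reads as independent, though a read is counted once at each CpG it covers. The scripts were tested on simulated data.

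Promoters were placed where all listed CpGs of the 300-base window, 6 or more, matched CpGs of the RefSeq sequence and the next best place matched at most 50% as many. The shift from the table's coordinates was the same for all promoters placed in HOXA and for all placed in HOXD. HOXB had only 1 placed promoter, PRAC2, so its shift could not be compared. 28 entries were not placed and not used.

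Named tiles were, in each cluster, the 3 tested tiles with the largest fall, the tested tile with the largest rise or smallest fall, and the tile with most kept CpGs among those starting under 10%. These ranks use the measured changes. Promoters starting at 20% or more and called gains were to be named, but there were none. HOXD had 3 tested tiles, so 1 came under both rules. Alternatives covered coverage, tiles, weighting, intervals, passages and the fit.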

Additional observations from a re-analysis of the deposited data

Results flagged for a closer look

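Data outside the main measurement also held methylated CpGs. Of the HOX CpGs with fewer than 5 reads in some library, 1909 had 10 or more reads when passages 6 to 8 were pooled and again when passages 27 and 28 were pooled. Among these, 82 (4.30%) lay at 20% or more early, against 1.44% of the kept CpGs when their reads of passages 6 to 8 are pooled in the same way. HOXB held 49, HOXD 20, HOXA 7 and HOXC 6 of them. In HOXB the pooled level went from 7.10 to 6.11%, 23 CpGs lay at 80% or more early, and 14 of these 23 did so late as well. In the long HOXB spacer 32 of 36 such CpGs lay at 20% or more early, with a mean of 69.0% early and 60.5% late. These CpGs have too few reads per library for a test.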

How the results depend on the processing

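All values here are slopes in points per passage, or differences of slopes, unless called counts, and the cause of each change was not tested. No paired analysis was possible because there is only 1 library at a passage. Of 244 alternative values of the trends, 212 kept direction and side of the threshold, as did 264 of 303 for the differences. Most turns of direction were in results that had missed the threshold. The HOXB slope turned to -0.0108 with 10 reads, -0.0351 with 1 and -0.00531 with 5 kept CpGs, -0.00235 with CpGs weighted alike, -0.00424 with pooled reads, -0.00590 with shifted tiles, -0.00247 with trimmed intervals and -0.00860 over passages 6 to 17. HOXD minus HOXB turned to 0.00814 with 10 reads, 0.00357 with 5 kept CpGs and 0.000728 with pooled reads, and HOXD minus HOXC to -0.0191 with 1 kept CpG and -0.0216 over passages 6 to 17. For tiles starting at 10 to 40%, HOX minus the rest turned to 0.0261 with 1 and 0.214 with 5 kept CpGs, 0.115 with tiles of 500 bases and 0.0113 with the class from passage 6. The value with 5 kept CpGs rests on a single HOX tile, chr7:27171001-27172000. The HOX class of 35 or more listed CpGs turned to -0.000802 with pooled reads, -0.000477 with shifted tiles and -0.00381 with density by kept CpGs, that of 20 to 34 to 0.00111 with tiles of 500 bases, and that of 10 to 19 to 0.00195 with 10 reads and 0.00116 over passages 6 to 17. HOXD turned to 0.000177 without the tiles starting at 10% or more. With 10 reads in every library the HOXC trend was lost (-0.00941), the class of 20 to 34 listed CpGs passed (-0.0221), the difference of HOXC from HOXA was lost (0.0327) and that of HOXC from HOXB turned to 0.00139. With 20 reads only tiles of HOXD were left, so the trend of all HOX tiles (-0.00968) was that of HOXD alone. That trend and the difference from other tiles starting under 10% (0.0211) were lost, and no HOX tile could be tested. Tiles with 1 kept CpG lost the differences from HOXA of HOXB (0.0230), HOXC (0.0308) and HOXD (0.0117) and turned HOXC minus HOXB to 0.00786. With 5 kept CpGs a tile, fewer tiles were left, and of the HOX class starting at 10 to 40% only chr7:27171001-27172000. The trends of HOXA (-0.0135), HOXC (-0.0172), all HOX tiles (-0.00943), the class starting at 10 to 40% (-0.472) and the sparse class (-0.0530) were then lost. So were the differences of HOXB (0.00819) and HOXD (0.0118) from HOXA and of the 2 start classes (-0.465), while HOXC minus HOXA turned to -0.00371 and HOXD minus HOXC passed (0.0155). HOXC minus HOXA was also lost with each CpG weighted alike (0.00817), with pooled reads (0.0102) and with tiles shifted by 500 bases (0.0118). Pooled reads made HOXD minus HOXC (0.0168) pass, and HOX tiles starting at 10 to 40% then fell faster than the others (-0.306), but slower with shifted tiles (0.251). Shifting also made the trend of tiles starting under 10% pass (-0.00583) and lost HOXD minus HOXA (0.0252). Passages 6 to 17 alone lost the HOXC trend (-0.0191), HOXD minus HOXA (0.0386) and HOXC minus HOXB (-0.0105). Without the tiles starting at 10% or more, the trends of HOXA (-0.00493) and HOXC (-0.0161) were lost, as were HOXB (0.00950) and HOXD (0.00510) against HOXA and HOXC against HOXB (-0.0207), and HOXC minus HOXA turned to -0.0112. With 1 library left out at a time, HOXC minus HOXA ranged from 0.0247 to 0.0325, HOXD minus HOXB from -0.0215 to -0.0110 the HOXB slope from -0.00451 to 0.009997, the class of 20 to 34 listed CpGs from -0.00905 to -0.00563 and that of 35 or more from -0.000354 to 0.00233. Among uncalled tiles, the fitted change in points at chr17:46605001-46606000 ranged from -5.52 to 17.7, at chr2:177011001-177012000 from -5.23 to 0.467, at chr12:54425001-54426000 from -0.0515 to 3.54 and at chr7:27187001-27188000 from -0.0353 to 0.213. Over passages 6 to 17 it was -6.63 at the first of these and 1.92 at chr12:54354001-54355000. The count of 5 lost tiles ranged from 3 to 5 over these omissions, and was 3 with limma on logit levels, 1 with 10 reads, 1 with 5 kept CpGs, 1 over passages 6 to 17 and 2 with a minimum change of 20 points. The count of 13 lost CpGs was 7 with 10 reads in every library. With 10 reads no HOX CpG reached 80% in all early libraries, so the share that kept its level has no value there. A single CpG can have as few as 5 reads in a library.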
